A study of Drosophila melanogaster with 12 samples.

Results

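Long non-coding RNAs (lncRNAs) that were well expressed in sorted cells of the Drosophila larval brain were followed across 4 groups of libraries. The lncRNAs were chosen by level alone: an annotated lncRNA was included when its deposited normalised count was at least 5 in 3 or more of the 12 libraries, and the dosage compensation RNAs roX1 and roX2 were left out. The rule kept 85 of 806 lncRNA rows in a table of 12610 rows, of which 7502 rows reached the same floor. A value of 5 stood for 108 to 162 reads, depending on the library.

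The cells were sorted by FACS, with GFP marking cells that express Rfx, from dissociated brains of larvae early in instar 3. The groups were GFP-positive cells of rfx knock-out (KO) brains, GFP-positive cells of wild-type (WT) brains, GFP-negative cells of KO brains and GFP-negative cells of WT brains, with 3 libraries each. The labels give neither the driver of the GFP, nor the kind of rfx allele, nor the number of animals pooled, nor the genetic background of either line. Nothing in them states that libraries of a group came from different animals, and p-values here therefore reflect the spread among libraries, which may be technical.

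Transcripts annotated as lncRNAs lack a long open reading frame, and only a minority have a known role. Some are processed to release a microRNA (miRNA) from their span, some lie antisense to or inside a protein-coding gene, and some act as RNAs, for example by holding proteins in granules or by being handed unequally to the daughters of a dividing stem cell. Rfx belongs to a family of transcription factors that switch on genes of the primary cilium. In the larval brain, neural stem cells called neuroblasts divide while neurons of earlier divisions already form circuits, so a brain dissociated at this age holds both.

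The libraries held 20301256 to 29771321 reads. Rfx itself stood at 1322, 1035 and 1021 in KO GFP-positive libraries, against 2918, 2542 and 2918 in WT GFP-positive libraries, and between 52.3 and 74.1 in all GFP-negative libraries. Its transcripts were thus lower in KO but still counted (log2 difference -1.32, adjusted p = 1.03e-05 by limma). All samples carry the label neuron. The summed level of 8 neuroblast genes ran from 30.1 to 50.2 in KO GFP-positive, 30.8 to 40.1 in WT GFP-positive, 1281 to 1491 in KO GFP-negative and 1064 to 1300.3 in WT GFP-negative libraries. The GFP-negative fraction therefore held neuroblast transcripts as well as those of neurons. All 8 neuroblast genes and all 8 of a cell cycle list were lower in GFP-positive cells of both genotypes, 6 of 7 pan-neuronal genes were higher, and none of these was called between genotypes. Of 8 glial genes 1 was higher and 4 were lower in GFP-positive cells, and of 5 hemocyte genes tested 3 were higher (Col4a1, vkg and Pxn), again in both genotypes. Hml, NimC1 and srp of the same list were low, with group means of at most 3.51. Their means were lower in GFP-positive than in GFP-negative cells of both genotypes. In a comparison of sorted fractions, fewer cells of a type and less RNA per cell cannot be told apart. Reads of rRNA genes were at 2.54% in KO GFP-positive replicate 3 and 12.2% in WT GFP-positive replicate 2, and at most 0.976% in every other library.

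The 85 lncRNAs were spread over the genome, with 23 on 3L, 23 on 3R, 14 on 2L, 12 on 2R, 12 on X and 1 on 4. Their exons summed to between 214 and 21710 bases, with a median of 1429, and 45 of them had a single exon block. The span of 16 held a miRNA gene on its own strand. A further lncRNA, CR42491 in RpL22, held a snoRNA gene. Another 39 overlapped no protein-coding gene, 20 lay on the strand opposite to one and 9 on the same strand as one. Libraries of this kind keep no strand, and 15 lncRNAs shared exon bases with a coding gene, so their reads can belong to either gene. Unspliced reads of a coding gene cannot be told from those of a lncRNA within its span, even with no shared exon bases. Most were low: 46 had a mean under 10 over the 12 libraries and 11 had a mean of at least 100. All 85 together took 1.18% to 2.16% of the deposited total of a library, and the 5 with the highest values, cherub, noe, Hsromega, CR40469 and CR42862, took 82.5% to 89.1% of that sum.

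The choice of members used their levels. Of the 85, 34 reached the floor in all 12 libraries. The floor was reached in both fractions by 70, in GFP-negative libraries alone by 13 and in GFP-positive libraries alone by 2, and for the last 15 a lean toward one fraction follows from the rule. CR44042 and CR43951 reached the floor in KO libraries alone and CR43973 in WT libraries alone, and for these 3 the direction between genotypes follows from the rule as well. Just inside the floor stood iab8, CR45284 and CR45941, whose third-highest values were 5.01, 5.10 and 5.25. Just outside it stood CR45333, dntRL and CR45736, with third-highest values of 4.86, 4.75 and 4.58.

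Levels of different lncRNAs are compared here per kilobase of exon. By that measure CR40469, a single-exon transcript of 214 bases (X, 122493 to 122706), came first with 6193 per kb as a mean of 12 libraries. noe followed with 4141, cherub with 656 and the alphagamma-element with 282. The heat-shock RNA Hsromega, whose exons cover 21710 bases, stood at 90.5 per kb.

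cherub (FBgn0262972; 3R, 11247631 to 11256123, minus strand; BDGP6.54 annotation) is an RNA that neuroblasts hand unequally to their daughters at division, and tumours of brat mutant brains depend on it. Its normalised count was 2967, 2519.7 and 3173 in KO GFP-positive libraries, 2242, 2585 and 2888 in WT GFP-positive libraries, 7709, 8054 and 8975 in KO GFP-negative libraries and 7099, 10015 and 7879 in WT GFP-negative libraries. Every GFP-negative library was above every GFP-positive one, and the genotypes overlapped within each fraction. The GFP-positive mean was 3.24-fold lower in WT (2572 ± 323 against 8331 ± 1509.6; SD, n = 3; limma adjusted p = 4.46e-06) and 2.86-fold lower in KO (2887 ± 334 against 8246 ± 654). cherub thus kept a level of at least 2242 in GFP-positive cells, where the summed neuroblast genes were at 50.2 or below.

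noe (FBgn0026197; 3L, 17400272 to 17401348) ran the other way. It stood at 5927, 6032 and 5862 in KO GFP-positive, 6769.9, 5394 and 7228 in WT GFP-positive, 2522, 2742 and 3249.7 in KO GFP-negative and 2038, 2760.1 and 2999 in WT GFP-negative libraries. The fractions did not overlap and the genotypes did. Its GFP-positive mean was 2.49-fold higher in WT (6464 ± 954 against 2599 ± 500.1; limma adjusted p = 5.28e-05) and 2.09-fold higher in KO. noe lies inside the span of blot on the same strand, with no shared exon bases. blot went in the opposite direction in WT, at 5.08 ± 0.621 in GFP-positive against 45.7 ± 13.3 in GFP-negative cells (log2 difference -2.91).

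mimi (FBgn0051451; 3R, 23983503 to 23985065), a neuronal RNA that scaffolds granules of RNA-binding proteins, had 144, 210.5 and 164 in KO GFP-positive, 159, 198 and 138 in WT GFP-positive, 61.6, 75.1 and 49.0 in KO GFP-negative and 66.4, 72.8 and 61.5 in WT GFP-negative libraries. It was higher in GFP-positive cells without overlap, 2.46-fold in WT and 2.79-fold in KO. Its neighbour CG31140, 270 bases to the left, averaged 1565 and 1552 in KO and WT GFP-positive cells and 596 and 558 in KO and WT GFP-negative cells, with a log2 difference of 1.48 in WT.

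The other 3 of the 5 with the highest values, Hsromega, CR40469 and CR42862, were not called between fractions by limma on all 12 libraries. Hsromega, the RNA of the omega speckles that gather RNA-processing factors after heat shock, averaged 2110.3 ± 327 in KO GFP-positive, 2299 ± 799 in WT GFP-positive, 1772 ± 276 in KO GFP-negative and 1676 ± 247 in WT GFP-negative cells. The WT difference was 0.40 ± 0.24 on the log2 scale (SE; limma adjusted p = 0.199), and was called without WT GFP-positive replicate 1. CR40469 stood at 936 ± 205, 1166 ± 45.3, 1613 ± 475 and 1585 ± 626 in the same order of groups. In both GFP-negative groups its replicate 1 was lowest, at 1069 in KO and 898 in WT, against 1736 to 2122 in the other 4 GFP-negative libraries. It was called lower in KO GFP-positive cells under 10 of 22 alternatives, edgeR and DESeq2 among them, and in WT GFP-positive cells under 2. CR42862 averaged 1237 ± 249.8, 1454 ± 165, 877 ± 170.1 and 1109.8 ± 186 in that order, and its WT difference of 0.40 ± 0.18 did not pass either (adjusted p = 0.108). It was called higher in KO GFP-positive cells under 7 of 22 alternatives and in WT under 1.

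**Figure D1:**
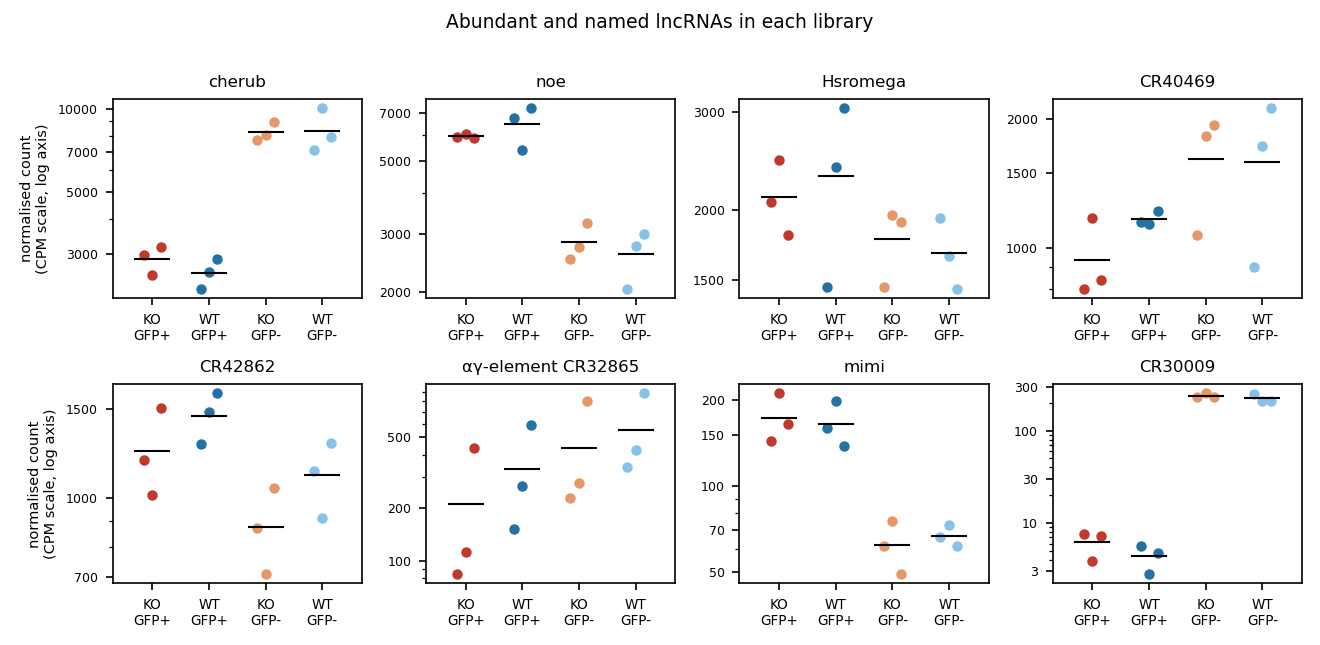
Normalised counts (CPM scale, log axis with its own range in each panel) of 8 abundant or named lncRNAs in KO and WT GFP-positive and KO and WT GFP-negative libraries. Points are libraries in replicate order and bars are group means. cherub and CR30009 are lower and noe and mimi higher in every GFP-positive library, while the alphagamma-element is highest in replicate 3 of each group.

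The alphagamma-element (FBgn0052865; 3R, 12475336 to 12478267), a transcribed repeat of the Hsp70 locus that is induced by heat shock, had the widest spread within groups of all 85. It stood at 83.9, 111 and 438 in KO GFP-positive, 151, 264 and 585 in WT GFP-positive, 227, 278 and 799.8 in KO GFP-negative and 341, 427 and 888 in WT GFP-negative libraries. Replicate 3 was the highest of each group, and all groups overlapped. No comparison called it by limma on all 12 libraries without a block, and the KO fractions called it as lower without KO GFP-positive replicate 3. The nearest coding gene, Hsp70Ba, 7559 bases away, averaged 2.05 ± 1.10 in KO GFP-positive against 27.6 ± 6.65 in WT GFP-positive cells and 2.30 ± 1.45 in KO GFP-negative against 28.0 ± 9.11 in WT GFP-negative cells. Hsp70 genes are near-identical copies, so the assignment of reads among them is uncertain.

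Setting GFP-positive against GFP-negative cells of WT brains addresses how cells that express Rfx differ from the other sorted cells. Of the 85 lncRNAs, 16 were higher and 33 lower in GFP-positive cells and 36 did not pass (limma, Benjamini-Hochberg adjusted p under 0.05 over 9912 rows). Over all rows tested 38% were called, 25.7% as higher and 12.3% as lower. Over the rows that reached the same floor of 5 it was 45.8%, with 32.4% higher and 13.3% lower. With the deposited scaling, the lncRNAs' share of lower calls, 38.8%, was above both backgrounds and their share of higher calls, 18.8%, below both. Their median log2 difference was -0.43, against 0.09 over all rows tested. Among the 63 lncRNAs that reached the floor in at least 1 library of each group, 15 were higher and 19 lower, and among the 17 that did so in GFP-negative libraries alone, 13 were lower. The split of calls depends on the scaling. With every library rescaled to the same total it was 9 higher and 38 lower, with edgeR 11 and 35, and with DESeq2 11 and 38. The background moved too. Over all rows, 33.4% of 3396 calls were higher when rescaled, 55.6% of 3513 with edgeR and 51.9% of 3947 with DESeq2. With the deposited scaling 67.7% of 3765 calls were higher. The rescaling put the median of all rows at -0.19, and the lncRNA median lay 0.49 below it, against 0.51 below with the deposited scaling.

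In KO brains the same comparison gave 21 higher and 24 lower, against 36.5% of all rows called (23.6% higher, 12.9% lower) and 44.3% of rows at the same floor (29.8% higher, 14.5% lower). The median was -0.15, against 0.07 over all rows. The split was 11 and 28 when rescaled to the same total, 16 and 25 with edgeR, and 21 and 28 with DESeq2. Over all rows, 39.8% of 3372 calls were higher when rescaled, 52.9% of 3561 with edgeR and 53.7% of 4017 with DESeq2. With the deposited scaling 64.8% of 3615 calls were higher. Among the 62 lncRNAs at the floor in both KO fractions, 16 were higher and 12 lower.

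The KO and WT fraction differences rest on separate libraries and can be set side by side. Across the 85 lncRNAs, which are not independent replicates, their Pearson correlation was 0.90, and 75 had the same sign in both genotypes. Neither figure was taken over all rows, so the likeness is not shown to be particular to lncRNAs. These figures include the 13 lncRNAs at the floor in GFP-negative libraries alone and the 2 in GFP-positive libraries alone. Their lean toward 1 fraction follows from the rule, and no correlation was taken without them. Called as higher in both genotypes were 15 of the 85 and as lower in both 24. The share of all rows called in both genotypes was not taken, so these counts have no background. In WT alone 25.7% of all rows were higher and 12.3% lower, and in KO alone 23.6% and 12.9%. CR44042 was the sole lncRNA called in opposite directions, and its call in WT was lost under 11 of 22 alternatives. Of the others, 8 were lower in WT alone, 1 (CR43973) higher in WT alone, 5 higher in KO alone, and 31 were called in neither.

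**Figure D2:**
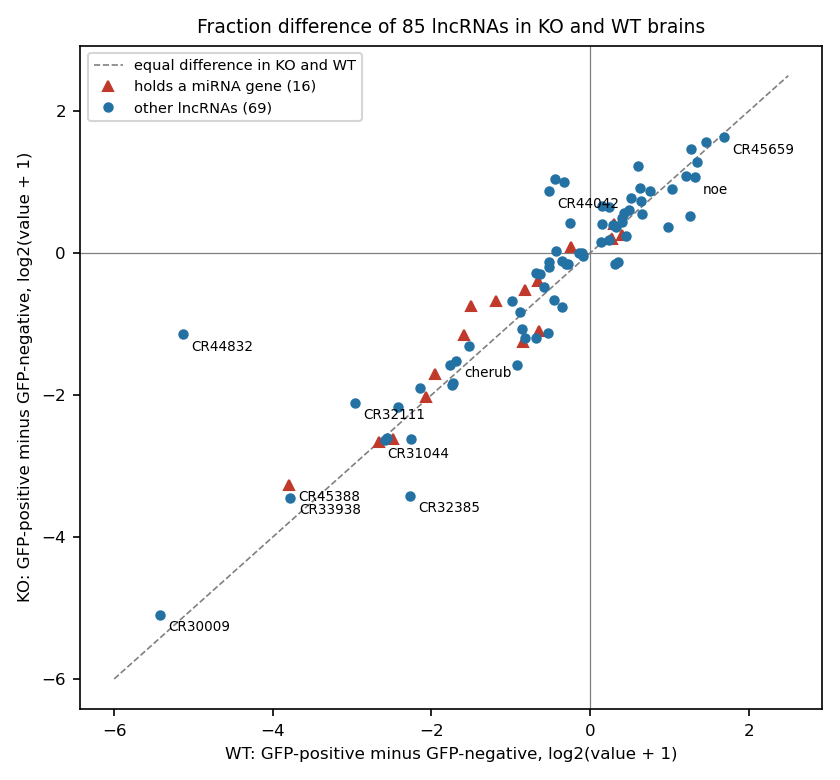
Difference between GFP-positive and GFP-negative cells on the log2(value + 1) scale in KO brains (vertical axis) and WT brains (horizontal axis) for each of the 85 lncRNAs. Triangles are the 16 lncRNAs that hold a miRNA gene, and the dashed line marks equal differences. CR44832 lies farthest from the line, at -1.14 in KO and -5.14 in WT.

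CR30009 (FBgn0050009; 2R, 10261315 to 10263827) had the largest fraction difference. It stood at 7.67, 3.84 and 7.21 in KO GFP-positive and 5.67, 2.79 and 4.72 in WT GFP-positive libraries, against 232, 252 and 232 in KO GFP-negative and 252, 211 and 211 in WT GFP-negative libraries. All GFP-negative libraries were far above all GFP-positive ones, and the 6 GFP-negative values lay within a narrow band. The GFP-positive mean was 51.1-fold lower in WT (log2 difference -5.42 ± 0.23, SE; limma adjusted p = 4.04e-09) and 38.2-fold lower in KO (-5.09 ± 0.23; adjusted p = 7.56e-09). CG12911, 38 bases from it, was also lower in WT GFP-positive cells, at 0.412 ± 0.323 against 5.77 ± 2.30.

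CR33938 (3R, 6699560 to 6700164) had 11.6, 10.2 and 16.1 in KO GFP-positive and 18.5, 8.87 and 10.03 in WT GFP-positive libraries, against 119, 145 and 177 in KO GFP-negative and 152, 197 and 179.6 in WT GFP-negative libraries. Its fractions were separated in both genotypes, 14.1-fold lower in WT GFP-positive (adjusted p = 1.42e-07) and 11.6-fold lower in KO GFP-positive cells. CR44272 (2R, 7992196 to 7992567) averaged 9.37 ± 2.13 and 9.67 ± 2.08 in KO and WT GFP-positive cells, against 61.0 ± 3.72 and 61.3 ± 2.76 in KO and WT GFP-negative cells. Its coding neighbour ACC, 333 bases away, averaged 66.1 ± 14.5 in WT GFP-positive and 67.3 ± 1.54 in WT GFP-negative cells and was not called.

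CR32111, CR43431, CR42721, CR45593, iab8, CR32385, CR44206 and CR45242 reached the floor in GFP-negative libraries alone, so that their direction between fractions follows from the rule and their values are a description. CR32111 (3L, 12627934 to 12648280) and CR43431 (3L, 12648907 to 12653090) sit 626 bases apart on opposite strands between caup and mirr, homeodomain genes of the Iroquois complex. CR32111 stood at 1.01, 2.70 and 3.41 in KO GFP-positive, 1.04, 0.604 and 1.71 in WT GFP-positive, 12.6, 12.6 and 13.2 in KO GFP-negative and 16.1, 13.0 and 16.6 in WT GFP-negative libraries. CR43431 averaged 0.606 ± 0.227, 0.606 ± 0.160, 6.32 ± 1.81 and 7.66 ± 1.15 in the same order of groups. Both were lower in GFP-positive cells of each genotype, CR32111 13.6-fold in WT and 5.39-fold in KO, and CR43431 12.6-fold in WT and 10.4-fold in KO. In WT the flanking genes were lower as well, caup at 0.822 ± 0.534 against 17.7 ± 1.10 and mirr at 3.40 ± 0.907 against 115 ± 12.5. Between genotypes, caup was higher in KO GFP-positive cells, at 7.99 ± 1.55 against 0.822 ± 0.534 in WT GFP-positive cells (log2 difference 2.33, adjusted p = 2.2e-05), as was mirr at 8.98 ± 2.22 against 3.40 ± 0.907 (1.18, adjusted p = 0.0032). CR32111 differed by 0.63 ± 0.27 (SE; adjusted p = 0.436) and CR43431 by -0.01 ± 0.21 in that comparison, and neither passed.

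CR42721 (3R, 6767050 to 6779728), the transcript of mir-993, and CR45593 (3R, 6761513 to 6763478) lie in the Antennapedia complex between and around Ama and the Hox gene Dfd. CR45593 shares 102 exon bases with Ama on the opposite strand. CR42721 stood at 0.0374, 0.353 and 1.10 in KO GFP-positive, 1.11, 0.465 and 0.929 in WT GFP-positive, 8.12, 6.32 and 9.24 in KO GFP-negative and 11.5, 7.08 and 9.44 in WT GFP-negative libraries. The lowest of these values is a single read. It was 11.2-fold lower in WT GFP-positive and 15.9-fold lower in KO GFP-positive cells, or 40.5-fold without KO GFP-positive replicate 3. CR45593 was 16.7-fold lower in WT (0.476 ± 0.252 against 7.94 ± 2.14) and 24.7-fold lower in KO, or 40.8-fold without the same library. Ama and Dfd were lower in WT GFP-positive cells too, at 11.3 ± 4.45 against 32.9 ± 4.78 and 0.866 ± 0.279 against 5.97 ± 1.23. iab8 (3R, 16831116 to 16923231), the long transcript of the bithorax complex that carries mir-iab-8, averaged 0.337 ± 0.251 and 0.853 ± 0.0639 in KO and WT GFP-positive cells, against 4.44 ± 0.758 and 6.93 ± 1.69 in KO and WT GFP-negative cells. It was 8.12-fold lower in WT and 13.2-fold lower in KO GFP-positive cells, the second value being 23.2-fold without KO GFP-positive replicate 3.

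CR32385 (3L, 6976322 to 6979222) lies antisense within Galphai, the G protein subunit that helps orient the neuroblast spindle, without shared exon bases. It had 0.936, 0.588 and 2.39 in KO GFP-positive and 3.16, 1.58 and 3.75 in WT GFP-positive libraries, against 21.4, 21.2 and 24.6 in KO GFP-negative and 15.9, 16.0 and 18.9 in WT GFP-negative libraries. The fractions were apart in both genotypes, 5.98-fold lower in WT and 17.2-fold lower in KO GFP-positive cells, or 29.4-fold in KO without KO GFP-positive replicate 3. Galphai averaged 8.02 ± 1.17 in WT GFP-positive against 226 ± 17.8 in WT GFP-negative cells.

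Higher in GFP-positive cells, besides noe and mimi, were mostly lncRNAs of moderate level. CR45659 (3L, 22840293 to 22841302) had 22.6, 15.4 and 20.0 in KO GFP-positive and 23.0, 18.1 and 25.6 in WT GFP-positive libraries, against 6.51, 4.40 and 5.76 in KO GFP-negative and 6.76, 5.55 and 6.25 in WT GFP-negative libraries. The fractions did not overlap, and its 3.60-fold difference in WT and 3.48-fold difference in KO were the largest among lncRNAs called higher in each genotype. CR42549 averaged 239 ± 29.5 and 262 ± 27.6 in KO and WT GFP-positive cells, against 112 ± 13.8 and 112 ± 8.51 in KO and WT GFP-negative cells. It lies on the strand of mura and shares 97 exon bases with it, and mura moved alike, at 495 ± 30.0 in WT GFP-positive against 249 ± 21.1 in WT GFP-negative cells. CR43685, next to alphaTub84B, was 2.10-fold higher in WT GFP-positive cells (48.4 ± 5.56 against 23.1 ± 1.87) and 1.90-fold higher in KO, while alphaTub84B was not called.

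CR45973, also higher in GFP-positive cells of both genotypes, shares 456 exon bases with CG13248 on the other strand. It averaged 38.2 ± 7.46 and 27.8 ± 5.26 in KO and WT GFP-positive cells, against 15.0 ± 2.38 and 10.2 ± 0.698 in KO and WT GFP-negative cells, and CG13248 averaged 226 ± 70.6 in WT GFP-positive against 80.8 ± 10.1 in WT GFP-negative cells. CR46008 shares 72 exon bases with pros, the homeodomain gene that ends neuroblast self-renewal in the daughter cell, and was 1.86-fold higher in WT GFP-positive cells (adjusted p = 0.0402), a call lost under 9 of 22 alternatives. For both, reads of the partner cannot be told from those of the lncRNA where exons overlap. CR44978, antisense within Lar with no shared exon bases, was 2.48-fold higher in WT and 1.47-fold higher in KO GFP-positive cells, the KO call being lost under 4 of 22 alternatives. CR44922 was 3.09-fold higher in WT, with 30.6, 70.4 and 31.9 in WT GFP-positive against 15.1, 16.0 and 11.9 in WT GFP-negative libraries. The call was lost without WT GFP-positive replicate 2, without WT GFP-negative replicate 3, and without both rRNA-rich libraries, with an adjusted p of up to 0.0797.

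Smaller differences were found for CR45409 and 5 further lncRNAs. CR45409 was 1.67-fold and CR46064 1.57-fold higher in WT GFP-positive cells, both lost when libraries were rescaled to the same total (adjusted p = 0.0818 and 0.0703). CR44997 (X, 22657324 to 22797682) was 2.70-fold higher in KO GFP-positive cells (8.66 ± 1.56 against 3.21 ± 1.04) and 1.66-fold higher in WT (6.15 ± 0.680 against 3.71 ± 0.126). It reached the floor in GFP-positive libraries alone, and its WT call was lost under 10 of 22 alternatives, edgeR and DESeq2 among them. CR42491, the snoRNA host inside RpL22, was 1.36-fold higher in KO and 1.31-fold higher in WT GFP-positive cells, calls lost under 4 and 8 of 22 alternatives, while RpL22, with which it shares 377 exon bases, averaged 259 ± 30.5 in WT GFP-positive and 263 ± 55.9 in WT GFP-negative cells. CR45758 was 1.96-fold higher in KO and 1.63-fold higher in WT GFP-positive cells, the WT call being lost under 8 of 22 alternatives. CR30055 was 1.30-fold higher in KO and 1.26-fold higher in WT GFP-positive cells, calls lost under 6 and 15 of 22. CR43973, described with the genotypes, was higher in WT alone.

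Of the 16 lncRNAs that hold a miRNA gene, those called between fractions were lower in GFP-positive cells. In WT, 10 of 16 were lower in GFP-positive cells and 0 were higher, with a median log2 difference of -1.01, against 12.3% lower and 25.7% higher over all rows. In KO, 6 of 16 were lower and 0 higher, with a median of -0.92, against 12.9% lower and 23.6% higher over all rows. These backgrounds hold for the deposited scaling. Rescaled to the same total, 11 hosts were lower in WT and 8 in KO. There 33.4% of the calls over all rows were higher in WT and 39.8% in KO. Without KO GFP-positive replicate 3, 11 hosts were lower in KO. Part of this follows from the floor: 5 of the 10 hosts lower in WT (CR46004, CR45910, CR42721, CR44206 and iab8) and 4 of the 6 lower in KO reached it in GFP-negative libraries of that genotype alone. Of the hosts at the floor in both fractions, 5 of 10 were lower in WT and 2 of 12 in KO. Over rows at the same floor of 5, 13.3% were lower in WT and 14.5% in KO, so this KO count was near the background. Across the other 22 settings the count of lower hosts ran from 8 to 11 in WT. With limma, edgeR and DESeq2 on all 12 libraries none was higher in KO or WT GFP-positive cells at an adjusted or an unadjusted p under 0.05, against 29.3% (KO) and 30.9% (WT) of all rows at an unadjusted p by limma. In WT 1 became higher without WT GFP-positive replicate 1. Several hosts lower in WT also varied within groups with the summed lncRNAs below the floor, as given with the spread. Counts are of the long transcript and not of the mature miRNA, which libraries of this kind do not measure.

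CR45388 (3L, 18852573 to 18861363), the host of mir-315, showed the largest difference among them. It stood at 9.73, 10.9 and 13.6 in KO GFP-positive and 4.74, 8.83 and 8.77 in WT GFP-positive libraries, against 98.6, 112 and 144 in KO GFP-negative and 91.0, 126 and 124 in WT GFP-negative libraries. Its GFP-positive values were lower without overlap, 15.3-fold in WT (adjusted p = 6.19e-08) and 10.4-fold in KO (adjusted p = 2.53e-07). The short CR45387 lies inside it on the same strand, with all of its 306 bases shared, and cannot be counted as separate evidence. CR31044, the host of mir-279 and mir-996, miRNAs known for limiting the formation of carbon dioxide-sensing neurons, was 7.42-fold lower in WT (4.49 ± 1.04 against 33.3 ± 2.69) and 7.84-fold lower in KO GFP-positive cells (3.41 ± 0.497 against 26.8 ± 2.36).

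The mir-276 hosts lie near each other on 3L. CR46006, the host of mir-276a, had 99.6, 83.8 and 141 in KO GFP-positive and 90.4, 86.0 and 104 in WT GFP-positive libraries, against 320.5, 287 and 444 in KO GFP-negative and 398, 304 and 402 in WT GFP-negative libraries. It was lower in both genotypes without overlap, 3.93-fold in WT and 3.24-fold in KO. CR46004, the host of mir-276b, was 3.37-fold lower in WT GFP-positive cells (adjusted p = 0.00198) and did not pass in KO (1.72-fold lower, adjusted p = 0.0738), where it was called under 4 of 22 alternatives. It shares 1291 bases with CR46003 on the other strand. CR44206, which carries mir-184, was 4.52-fold lower in WT and 2.92-fold lower in KO GFP-positive cells.

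Smaller differences belonged to CR45910 (mir-1000), CR43459 (mir-34 and mir-277) and CR45911 (mir-13a, mir-13b-1 and mir-2c), which were 2.61-fold, 1.84-fold and 1.59-fold lower in WT GFP-positive cells and did not pass in KO with limma on all 12 libraries. In KO they were called as lower under 5, 2 and 3 of 22 alternatives, DESeq2 among them for CR45910 and CR45911. The WT call of CR43459 was lost under 6 alternatives and that of CR45911 under 2. CR45919, the host of mir-124, the miRNA most characteristic of neurons, stood at 81.1, 67.8 and 77.9 in KO GFP-positive, 59.3, 80.9 and 70.6 in WT GFP-positive, 65.7, 67.0 and 81.9 in KO GFP-negative and 83.3, 78.9 and 85.7 in WT GFP-negative libraries. All 4 groups overlapped, and its WT difference was -0.24 ± 0.13 (SE; adjusted p = 0.162), called as lower under 4 of 22 alternatives, edgeR and DESeq2 among them. The hosts of mir-8 (CR43650), mir-bft (CR43314), mir-4973 (CR45347) and mir-275 (CR43857) and Hsromega, which carries mir-4951, were not called between fractions in either genotype by limma on all 12 libraries.

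**Figure D3:**
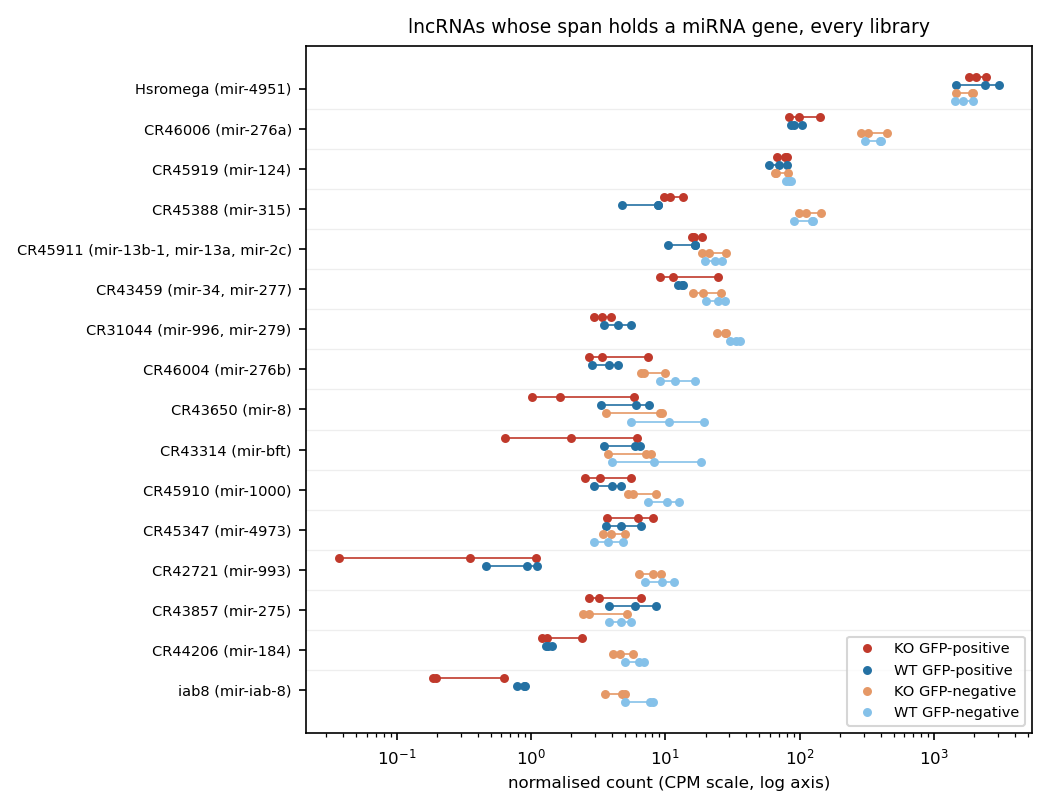
Normalised count (CPM scale, log axis) of the 16 lncRNAs whose span holds a miRNA gene, named in brackets, ordered by mean value. Each point is a library, and lines join the lowest and highest library of a group. CR45388, CR46006, CR31044, CR42721, CR44206 and iab8 have both GFP-positive groups below both GFP-negative groups.

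Setting KO against WT within the GFP-positive fraction addresses which lncRNAs differ between the rfx KO and WT lines in the marked cells. Loss of rfx and any other difference between the 2 lines cannot be told apart in this design. CR44832 and CR44042 were higher in KO and CR42861, CR43973, CR31386 and CR44978 were lower. These are 6 of 85, or 2 higher and 4 lower, against 3.07% of all rows called (1.75% higher, 1.32% lower) and 3.56% of rows at the same floor (2.09% higher, 1.47% lower). The counts include CR44042, at the floor in KO libraries alone, and CR43973, at the floor in WT libraries alone. For both, the direction follows from the rule. At an unadjusted p under 0.05 there were 11 higher and 10 lower, against 5.86% and 4.38% of all rows (10.2% in either direction). Median log2 differences were -0.05 over the lncRNAs and 0.01 over all rows. The count of lower lncRNAs was 2 without any of KO GFP-positive replicate 1, WT GFP-positive replicates 1, 2 or 3, KO GFP-negative replicate 1 or WT GFP-negative replicate 3, and that of higher ones was 5 without WT GFP-negative replicate 1. Without this last library 337 of all rows were called, against 304 with it.

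CR44832 (FBgn0266095; X, 5790952 to 5791536), a single-exon lncRNA, had 23.5, 142 and 41.8 in KO GFP-positive libraries, against 6.00, 1.90 and 3.64 in WT GFP-positive libraries. In GFP-negative libraries it stood at 77.7, 296 and 68.0 in KO and 93.3, 252 and 171 in WT. The GFP-positive genotypes were apart without overlap, while the GFP-negative ones overlapped, and KO GFP-positive values reached into the GFP-negative range. The KO mean was 18.0-fold higher (69.2 ± 64.0 against 3.85 ± 2.05; log2 difference 3.55 ± 0.66, SE; limma adjusted p = 0.0087). It was 8.49-fold higher without KO GFP-positive replicate 2, and the call was lost when both libraries rich in rRNA reads were left out (adjusted p = 0.0649). CR44832 was 44.7-fold lower in WT GFP-positive than in WT GFP-negative cells, and 2.12-fold lower in KO, which did not pass (adjusted p = 0.197) but did without KO GFP-positive replicate 2. The difference between these fraction differences was 4.00 ± 0.93 on the log2 scale and did not pass (adjusted p = 0.111), but was called by DESeq2, with lane as covariate and without KO GFP-negative replicate 2. The gene CG12239, 603 bases to the right, averaged 29.2 ± 30.6 in KO GFP-positive and 4.61 ± 3.79 in WT GFP-positive cells, 196 ± 140 in KO GFP-negative and 191 ± 63.4 in WT GFP-negative cells, and did not pass between genotypes (adjusted p = 0.149 in GFP-positive cells).

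CR44042 (FBgn0264834; 2R, 1348167 to 1349167) had 9.06, 11.5 and 7.76 in KO GFP-positive libraries, against 1.58, 1.58 and 1.26 in WT GFP-positive libraries. It had 4.35, 5.04 and 4.53 in KO GFP-negative libraries, against 3.06, 2.05 and 2.60 in WT GFP-negative libraries. The genotypes did not overlap in either fraction. The KO mean was 6.41-fold higher in GFP-positive cells (9.44 ± 1.91 against 1.47 ± 0.183; adjusted p = 2.17e-05), a call kept under all 22 alternatives. Because it reached the floor in KO libraries alone, the direction follows from the rule and these values are a description. In GFP-negative cells it was 1.81-fold higher, which did not pass (adjusted p = 0.206). CR44042 was 2.03-fold higher in GFP-positive than in GFP-negative cells of KO and 1.74-fold lower in those of WT, the WT call being lost under 11 of 22 alternatives. The gene l(2)41Ab, 224 bases away, averaged 37.6 ± 5.12 in KO GFP-positive and 22.6 ± 5.09 in WT GFP-positive cells (log2 difference 0.72, adjusted p = 0.0499).

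CR42861 (FBgn0262108; X, 13744928 to 13745476) was lower in KO in both fractions. It stood at 7.00, 12.3 and 9.09 in KO GFP-positive against 29.4, 31.4 and 26.7 in WT GFP-positive libraries, and at 5.74, 7.32 and 4.45 in KO GFP-negative against 18.2, 19.7 and 23.7 in WT GFP-negative libraries. No KO library reached the lowest WT library, and the genotypes were also apart in GFP-negative cells, where Rfx stood at 74.1 or below in both. The difference was 3.08-fold in GFP-positive cells (log2 difference -1.56 ± 0.21; adjusted p = 0.000609) and 3.51-fold in GFP-negative cells (-1.67 ± 0.21; adjusted p = 0.00104), and both calls were kept under all 22 alternatives. The log2 differences of the 2 fractions differed by 0.11 ± 0.29 (SE), which did not pass. CR42861 lies between Grip91, 244 bases away, and Pdcd4, 100 bases away. Grip91 was lower in KO GFP-negative cells (35.5 ± 4.52 against 53.9 ± 1.74 in WT GFP-negative cells; log2 difference -0.60, adjusted p = 0.0389) and Pdcd4 was not called.

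CR43973 (FBgn0264704; 3L, 15098534 to 15099502) lies antisense within Ctps, the gene of CTP synthase, and shares no exon bases with it. It had 3.03, 2.08 and 3.60 in KO GFP-positive against 9.41, 8.92 and 9.62 in WT GFP-positive libraries. In GFP-negative libraries it had 1.98, 1.85 and 2.14 in KO against 3.38, 5.50 and 3.95 in WT. The genotypes were apart in both fractions. The GFP-positive difference was 3.21-fold (adjusted p = 0.00089) and held under all 22 alternatives, but CR43973 reached the floor in WT libraries alone, so that its direction follows from the rule. The GFP-negative one of 2.15-fold did not pass (adjusted p = 0.138). Ctps averaged 202 ± 25.2 in KO and 193 ± 17.7 in WT GFP-positive cells.

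The other 2 lower lncRNAs rested on narrower margins. CR31386 (3R, 11269415 to 11305608), which lies 13291 bases from cherub on the same strand, had 3.97, 2.82 and 3.76 in KO GFP-positive against 6.39, 5.90 and 7.39 in WT GFP-positive libraries. The groups did not overlap, and the 1.87-fold difference (adjusted p = 0.0423) was lost under 13 of 22 alternatives, whose adjusted p reached 0.193. CR44978 had 25.9, 32.2 and 21.7 in KO GFP-positive against 43.2, 42.2 and 42.0 in WT GFP-positive libraries. Here too the groups were apart, at 1.60-fold (adjusted p = 0.036), and the call was lost under 8 of 22 alternatives with an adjusted p of up to 0.191.

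**Figure D4:**
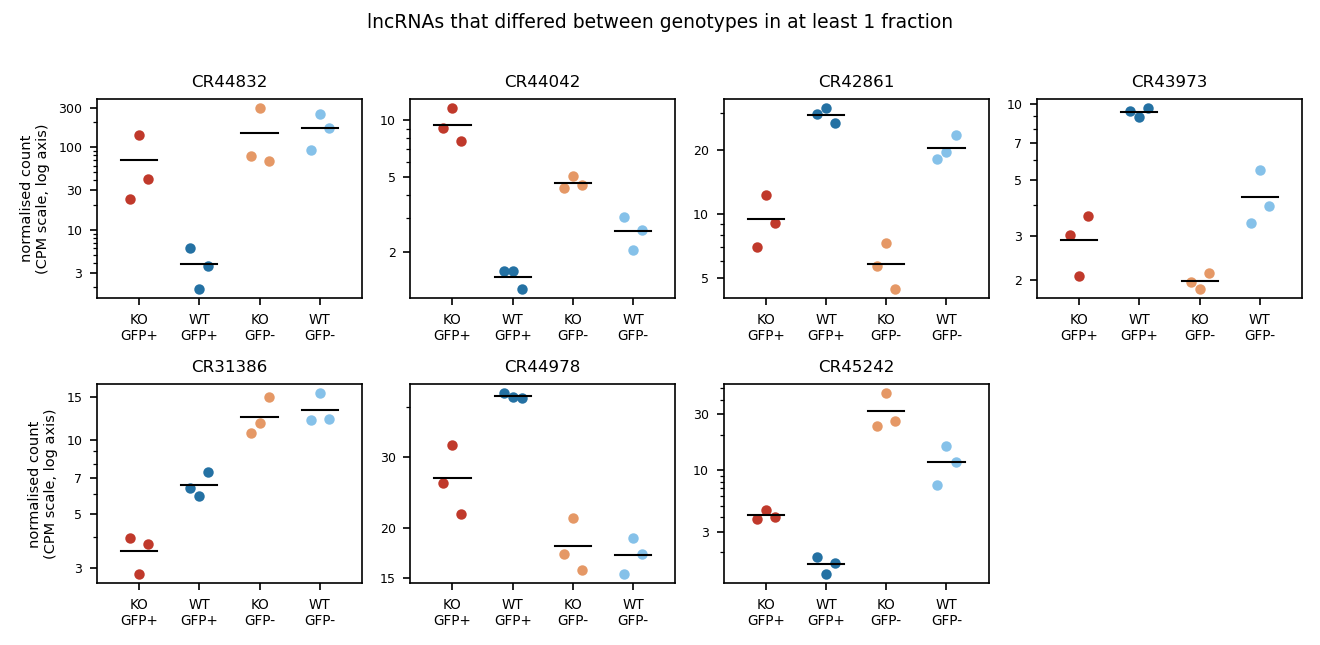
Normalised counts (CPM scale, log axis with its own range in each panel) of the 7 lncRNAs called between genotypes in GFP-positive or GFP-negative cells. Points are libraries in replicate order and bars are group means. CR42861 is lower in KO in both fractions, and CR44832 in KO GFP-positive cells spans 23.5 to 142.

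Between KO and WT GFP-negative cells, CR42861 was lower and CR45242 higher, 2 of 85, against 0.686% of all rows called (0.434% higher, 0.252% lower) and 0.72% of rows at the same floor (0.507% higher, 0.213% lower). At an unadjusted p under 0.05 there were 4 higher and 9 lower, against 5.42% and 2.62% of all rows (8.04% in either direction). CR45242 (3L, 10269482 to 10270353) stood at 23.8, 45.1 and 26.2 in KO GFP-negative against 7.47, 16.0 and 11.9 in WT GFP-negative libraries, and at 3.82, 4.58 and 4.00 in KO GFP-positive against 1.83, 1.30 and 1.63 in WT GFP-positive libraries. The genotypes did not overlap in either fraction. It was 2.69-fold higher in KO GFP-negative cells (adjusted p = 0.0402), lost under 15 of 22 alternatives, and 2.60-fold higher in KO GFP-positive cells, which did not pass (adjusted p = 0.0838) but was called under 8 of 22 alternatives, edgeR and DESeq2 among them. It was also among the lncRNAs low in GFP-positive cells, 7.42-fold lower in WT and 7.67-fold lower in KO.

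A test of whether the KO difference is itself different in the 2 fractions (the interaction of genotype and GFP) called 1 of 85 lncRNAs as higher, CR44042, and 0 as lower with limma. Over all rows 0.555% were called (0.282% higher, 0.272% lower), and over rows at the same floor 0.706% (0.373% higher, 0.333% lower). At an unadjusted p under 0.05 there were 5 higher and 4 lower lncRNAs, against 1.99% and 1.93% of all rows (3.91% in either direction), and DESeq2 called 2 higher. DESeq2 called 117 of all rows in the interaction, against 55 by limma. The interaction of CR44042 was 1.40 ± 0.26 (SE; adjusted p = 0.0317), a call lost under 12 of 22 alternatives. CR44042 was a member only through KO libraries, mostly GFP-positive ones, which also make its interaction positive. The call and its count are therefore a description.

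None of the 16 miRNA hosts, and neither cherub, noe, mimi nor Hsromega, was called between genotypes in either fraction by limma on all 12 libraries without a block. At an unadjusted p under 0.05, limma gave 1 host as higher and 1 as lower in KO than in WT GFP-positive cells, and 0 as higher and 1 as lower between GFP-negative cells; edgeR and DESeq2 called 0 hosts after adjustment. The log2 difference of cherub in GFP-positive cells was 0.17 ± 0.16 (SE), that of noe -0.11 ± 0.17, that of mimi 0.07 ± 0.18 and that of Hsromega -0.07 ± 0.24. CR44938, named after its values were seen because it is the lncRNA of the set nearest to Rfx, at 7425 bases, was not called in any comparison by limma on all 12 libraries. As higher in GFP-positive cells it was called under 4 of 22 alternatives in KO and 2 in WT.

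The 12 lncRNAs with the widest spread included CR44380, CR43314, CR45284, CR43650 and CR44754, which were high and low in the same libraries. CR43314 stood at 0.636, 2.00 and 6.15 in KO GFP-positive, 6.46, 3.48 and 5.98 in WT GFP-positive, 7.16, 3.76 and 7.76 in KO GFP-negative and 18.5, 4.01 and 8.16 in WT GFP-negative libraries. CR44380 had 0.599, 1.06 and 4.23, then 4.92, 2.23 and 4.90, then 6.14, 2.59 and 5.93, then 14.7, 2.09 and 6.02 in the same order of groups. In both, WT GFP-negative replicate 1 was the highest library and KO GFP-positive replicate 1 the lowest. The summed value of the 721 lncRNAs below the floor moved with them, at 301, 391 and 705 in KO GFP-positive, 618, 487 and 508 in WT GFP-positive, 614, 462 and 767 in KO GFP-negative and 1337, 494 and 825 in WT GFP-negative libraries. None of these 5 was called in any comparison by limma on all 12 libraries, and all 5 were called as lower in KO GFP-positive cells without KO GFP-positive replicate 3. CR44754 was called there under 8 of 22 alternatives, DESeq2 among them, CR43650 under 5, CR45284 under 4, CR44380 under 3 and CR43314 under 2. In WT, CR45284 was called under 2 and CR44754 under 1. Over the 12 libraries, deviations from the group mean correlated with those of that sum at 0.97 for CR43314, 0.96 for CR44754, 0.95 for CR44380 and CR43650 and 0.89 for CR45284. Other lncRNAs moved with it too. Among miRNA hosts lower in WT, it was 0.92 for CR42721, 0.87 for CR45910, 0.86 for CR46004 and 0.75 for CR46006. It was 0.73 for CR44206 and CR43459, 0.63 for iab8, 0.18 for CR31044, 0.0046 for CR45911 and -0.07 for CR45388. The cause was not tested.

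**Figure D5:**
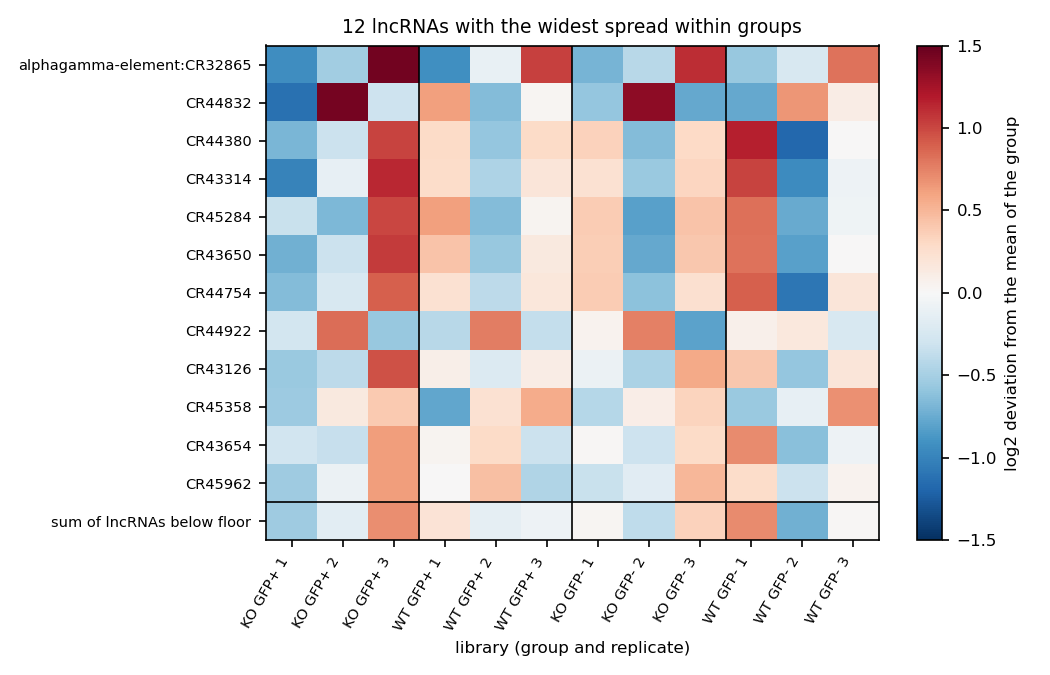
Deviation of each library from the mean of its group (log2, colour) for the 12 lncRNAs with the widest spread within groups, with the summed value of the 721 lncRNAs below the floor in the last row. Columns are libraries by group and replicate. The alphagamma-element is high in replicate 3 of every group, and CR44380, CR43314, CR45284, CR43650 and CR44754 follow the last row.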

How the data were processed

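The deposited table gives a signal per gene, named as normalised counts. Per the submitters' processing notes, the tools were edgeR 3.10.5, HTSeq 0.6.1 and TopHat2 2.0.13 and the build was BDGP6, with no role or order given. Per the labels' protocols, 4 ng of total RNA went into SMARTer Ultra Low and Nextera libraries. In each library 100% of the deposited values are whole multiples of the value of 1 read (tolerance 0.001), so whole reads could be recovered from this signal. Positions and classes came from the BDGP6.54 annotation, which lists all 85 lncRNAs. No sequences are shown.

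Rows with a value of at least 1 in 3 libraries were tested with limma-trend 3.58.1 (R 4.3.3) on log2(value + 1), which understates the change of low genes. Group means of all 12 libraries stood in 1 fit, and the Benjamini-Hochberg adjusted p had to be under 0.05. Folds are ratios of group means. Alternatives were edgeR 4.0.16 and DESeq2 1.42.0 on recovered reads, a pseudocount of 0.25, other filters and scalings, lane, run of title numbers and libraries left out. In every group replicate 1 was on lane 7 and replicate 2 on lane 6. Replicate 3 was on lane 7 in both KO groups and on lane 6 in both WT groups, so lane and genotype are partly confounded. The depth put 22 to 32 reads behind a value of 1.

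Replicates were numbered in accession order, which gives the same grouping as the runs of adjacent title numbers, and no label calls a run a batch. With 3 libraries a group, the smallest p of an exact permutation test is 0.1. The lncRNAs, lists and comparisons were chosen with earlier results of these data known. Named were the 10 with the highest mean, up to 12 called and non-overlapping lncRNAs in each direction for the first comparison of genotypes and of fractions, up to 6 for the others, those with a name of their own, hosts of small RNAs, and 3 on each side of the floor. Outside this rule, CR45758, CR30055, CR44380, CR44754, CR43951 and CR45358 were named after their values were seen. CR45387 and CR46003 were named because they overlap a named lncRNA.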

Additional observations from a re-analysis of the deposited data

Results flagged for a closer look

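CR44042 was singled out because its difference between KO and WT was not the same in the 2 sorted fractions. The log2 difference between KO and WT was 2.06 in GFP-positive cells and 0.67 in GFP-negative cells, and the interaction of genotype with GFP was 1.40 ± 0.26 (SE; limma adjusted p = 0.0317). Its values were 9.06, 11.5 and 7.76 in KO GFP-positive against 1.58, 1.58 and 1.26 in WT GFP-positive libraries, and 4.35, 5.04 and 4.53 in KO GFP-negative against 3.06, 2.05 and 2.60 in WT GFP-negative libraries. It was the sole lncRNA of 85 called for the interaction, against 0.555% of all rows, and 9 of 85 had an unadjusted p under 0.05, against 3.91% of all rows. It reached the floor of 5 in 3 KO GFP-positive libraries and 1 KO GFP-negative library and in no WT library, so its higher level in KO follows from the choice of members. The same KO GFP-positive libraries make the interaction positive. Its p and its count against all rows are therefore a description and no support for an interaction. The interaction was positive under all 22 alternatives and was lost under 12 of them, with an adjusted p of up to 0.11.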

How the results depend on the processing

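Of 103 calls of the 85 lncRNAs over the 5 comparisons, 71 were kept under all 22 alternatives. Lost under some were 14 of 49 calls between the WT fractions, 13 of 45 between the KO fractions, 3 of 6 between GFP-positive and 1 of 2 between GFP-negative genotypes, and the 1 of the interaction. In the opposite direction 0 were called. KO against WT GFP-positive cells gave 2 higher lncRNAs, and 5 with DESeq2, 5 with lane as covariate and 1 when both libraries rich in rRNA reads were left out. Calls over all rows in that comparison went from 304 to 505, 385 and 241 in these settings. The fraction counts of 16 higher in WT and 21 higher in KO were 9 and 11 when libraries were rescaled to the same total. Of the calls over all rows, the share that was higher went from 67.7% to 33.4% in WT and from 64.8% to 39.8% in KO. Between GFP-negative genotypes, the 1 higher lncRNA became 0 with edgeR, a pseudocount of 0.25, no filter or without the 2 rRNA-rich libraries and 2 with quantile normalisation, and the 1 lower became 3 with DESeq2. Over all rows DESeq2 called 152 there, against 68 by limma. The 1 higher lncRNA of the interaction became 2 with DESeq2 or lane, and 0 with no filter or without the 2 rRNA-rich libraries, where 1 was lower against 0. Calls of the interaction over all rows were 117 with DESeq2 and 74 with lane, against 55. The cause of these changes was not tested. Leaving out 1 library in turn gave 2 to 5 higher and 2 to 4 lower for KO against WT GFP-positive cells, 11 to 16 and 27 to 33 for the WT fractions, 14 to 24 and 23 to 33 for the KO fractions, 0 to 1 and 1 to 1 for the GFP-negative genotypes, and 0 to 1 and 0 to 0 for the interaction.

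Replicate numbers equal runs of adjacent title numbers, and no label ties the libraries of a run together. Runs were tried as a replicate block: 18 pairs of libraries of 1 run had correlated deviations from -0.34 to 0.60 (median 0.31), and 36 other pairs from -0.57 to 0.48 (median -0.13), with medians of 0.34 and -0.19 over the 85 lncRNAs. Of 12 libraries, 10 correlated best with one of their own run, a hint from the data and not from the design. With this block limma called 6 lncRNAs higher in KO than in WT GFP-positive cells, CR45388 (adjusted p = 0.0202) and CR45358 among them. Over all rows that comparison called 475 with the block (60.6% of them higher) and 304 without it (56.9% higher). CR45358, named after its values were seen, had a log2 difference of 1.55 (adjusted p = 9.99e-05). Its reads were 291, 463 and 556 in KO GFP-positive against 68, 127 and 207 in WT GFP-positive libraries. It was not among the 2 that limma called higher without the block. In the interaction 3 were higher with the block, CR44832 among them. Over all rows the interaction called 101 with the block and 55 without it. The alphagamma-element, in which KO GFP-positive was below WT GFP-positive and GFP-positive below GFP-negative within every run, was called lower with the block in KO against WT GFP-positive cells (log2 difference -0.83, adjusted p = 0.00853) and in GFP-positive cells of KO (-1.20) and WT (-0.82). Depth bears on the lowest values, such as the single read of CR42721, while a value of 5 stood for 108 to 162 reads.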

Other observations

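Among the 303 lncRNAs below the floor that were still tested, 6 were higher in KO than in WT GFP-positive cells by limma, against 1.75% of all rows. The WT fractions gave 10 higher and 17 lower in GFP-positive cells, against 25.7% and 12.3% of all rows. The KO fractions gave 12 higher and 14 lower, against 23.6% and 12.9%. Between KO and WT GFP-negative cells, CR44392 was higher and CR44674 and CR45030 were lower, against 0.434% higher and 0.252% lower of all rows. These 3 were named after their values were seen, and CR44392 was also among the 6 higher in KO GFP-positive cells.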
